A study of Mus musculus with 9 samples.

Results

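The genes of fatty acid uptake and oxidation were described across hearts of mice carrying a frameshift allele of Rbm20, the gene of a muscle RNA-binding protein that regulates splicing. The 37 genes were named for their known place in the pathway, by a rule that uses no measured value though earlier results of these data were known, and were followed in 4 steps: uptake and activation, the carnitine shuttle, beta oxidation, and regulators and side branches. Of these, 35 had their own gene identifier among the 54660 identifiers of the deposited table, and all 35 passed the filter on low counts that left 22049 identifiers for testing. Cpt1b and Etfb were listed solely under identifiers joined with overlapping genes and are given separately.

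Hearts of homozygous, heterozygous and wild-type mice aged 12 weeks were sequenced as total RNA, with 3 libraries per genotype. The edited allele lacks 2 bases, which shifts the reading frame at codon 374 of mouse Rbm20. Homozygous mice carry the allele on both chromosomes, heterozygous mice on 1, and wild-type mice on neither; the strain, the sex, the number of founder lines and the part of the heart taken are not given in the sources used here. The titles number the hearts within each genotype, and the headers of the deposited table give each library a further number of its own. No label states that each library is a separate mouse, and the spread behind each p-value may therefore be partly technical.

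The heart takes most of its energy from fatty acids. Lipoprotein lipase frees them from circulating triglyceride, CD36 and fatty acid transport proteins carry them into the cell, and acyl-CoA synthetases trap them as CoA esters. Carnitine palmitoyltransferases and a carrier move the acyl groups into mitochondria, where beta oxidation shortens the chain in repeated cycles of dehydrogenation, hydration, dehydrogenation and thiolysis. The nuclear receptor PPARα and its coactivator PGC-1α raise the transcription of many of these genes.

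Inclusion counts, which are reads assigned to an exonic part (a piece of an exon bounded by annotated exon edges), summed to between 297 and 323 M per library. They were summed per gene and expressed as CPM, which are counts scaled to library size. Rbm20 itself stood at 66, 51.8 and 54.7 CPM in homozygous hearts, 85.5, 68.4 and 90.2 CPM in heterozygous hearts and 105, 104 and 132 CPM in wild-type hearts. It fell in homozygous hearts by 0.98 on the log2 scale (adjusted p = 0.00428 against wild-type, edgeR). Heterozygous replicate 3 stood apart in atrial markers: their summed level ran from 417 to 563 CPM in homozygous, from 87.3 to 2111 CPM in heterozygous and from 134 to 210 CPM in wild-type libraries, with the 2111 CPM in that library. In homozygous libraries nearly all of the sum was Nppa, an atrial peptide gene that diseased ventricle also expresses, at 542, 520 and 382 CPM, against 86.5, 89.7 and 86.4 CPM in wild-type libraries (log2 fold change 2.46, adjusted p = 0.12). The other tested atrial markers had log2 fold changes below 0 in homozygous against wild-type libraries. These were -2.73 for Myl7, -2.28 for Myl4, -2.77 for Sln and -1.07 for Kcnj3. Kcnj3 alone was called (adjusted p = 0.0405, edgeR). For Myl7, Myl4 and Sln the homozygous and wild-type libraries overlapped. Wild-type replicate 1 was high in these genes, at 28.1, 54.3 and 7.02 CPM. Replicates 2 and 3 of wild-type had 3.25 and 5.88 CPM for Myl7, 8.27 and 8.71 CPM for Myl4 and 0.361 and 0.681 CPM for Sln. Of the 6 atrial markers, Bmp10 was at 0 in 7 libraries and Sln in 2. The log2 ratio of reads toward the 5′ end to reads toward the 3′ end of genes, set against the mean library, ran from -0.29 to -0.01 in homozygous, from -0.06 to 0.15 in heterozygous and from -0.03 to 0.14 in wild-type libraries, and was lowest in homozygous replicate 2.

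In homozygous hearts the fatty acid genes were on balance slightly lower than in wild-type hearts, but no single member passed the test. Of the 35 genes, 0 were called at an adjusted p under 0.05 by edgeR's quasi-likelihood test, where 4.39% of all genes tested were called in either direction and 2.52% were called lower. At an unadjusted p under 0.05 there were 12 members (34.3%), all lower, against 12% of all genes lower and 10.7% higher at that p. Their median log2 fold change was -0.18, beside 0.00 for all genes, and 26 of 35 were below 0, beside 50.3% of all genes. The 3 libraries of each genotype did not overlap for 18 members, of which 17 were lower (background 16.1%) and 1 was higher (background 14.4%). These counts describe the list and do not test it.

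The call depended on the tool. DESeq2 called 8 members, all lower: Lpl, Acsl1, Cpt2, Crat, Hadh, Ehhadh, Acot1 and Ppara, out of 2593 genes that it called in all, against 969 by edgeR. With library totals in place of the scaling factors, 11 members were called lower, but the median of all genes then also moved to -0.10, with the members at -0.28. In bulk tissue, fewer cells of a type and less RNA per cell cannot be told apart. The summed level of 7 cardiomyocyte markers ran from 73054 to 82766 CPM in homozygous and from 59910 to 70370 CPM in wild-type libraries, and 1 of these markers, Myl2, was called higher by 0.79 on the log2 scale (adjusted p = 0.0437), while Ryr2 was at -0.74 (adjusted p = 0.0557). Endothelial markers summed to 543 to 573 CPM in homozygous and 517 to 605 CPM in wild-type libraries, and adipocyte markers to 0.745 to 6.23 CPM in homozygous and 0.707 to 5.15 CPM in wild-type libraries. The part of these markers in the result was not tested. With the 5′-to-3′ ratio as a covariate, the members' median was -0.17, with 11 at an unadjusted p under 0.05 and 0 called, and without homozygous replicate 2 it was -0.18, with 10 and 0.

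The library names carry numbers in 2 runs. The lower run held 3 homozygous, 2 heterozygous and 1 wild-type library, and the upper run held 0 homozygous, 1 heterozygous and 2 wild-type libraries. Within the lower run, 28 of 35 members had a homozygous mean below the wild-type library, against 48.6% of all genes, and 20 had all 3 homozygous libraries below it (57.1%, background 30.8%). The median log2 ratio was -0.20 over members and 0.01 over all genes. The upper run gives no value for homozygous hearts.

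Levels per length set the members in order. In wild-type hearts, inclusion CPM per kb of effective length, taken over parts that are nearly always included, was highest for Fabp3 at 1700 ± 240 (SD, n = 3). Fabp3 encodes the heart's cytosolic fatty acid-binding protein. Lpl at 444 ± 66.9 and the dienoyl-CoA isomerase Ech1 at 442 ± 20.2 came next and did not differ beyond their spread. After Hadhb at 273 ± 7.57 and Acaa2 at 260 ± 25.1 came 5 genes whose neighbours lay within their spread: Cd36 at 210 ± 15.6, Etfa at 209 ± 3.61, Acadm at 206 ± 8.3, Acadvl at 203 ± 5.54 and Acadl at 199 ± 6.45 CPM per kb. The regulators were far lower, with Ppargc1a at 11.5 ± 1.56 and Ppara at 4.31 ± 1.02 CPM per kb. Cpt1a, the liver-type carnitine palmitoyltransferase, was at 4.2 ± 0.417, and the peroxisomal bifunctional enzyme gene Ehhadh was lowest at 1.17 ± 0.158 CPM per kb. Among the 33 neighbouring pairs of the 34 genes ordered, 16 lay within 1 SD of each other; Acot1 had no part that is nearly always included and was not ordered.

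**Figure D1:**
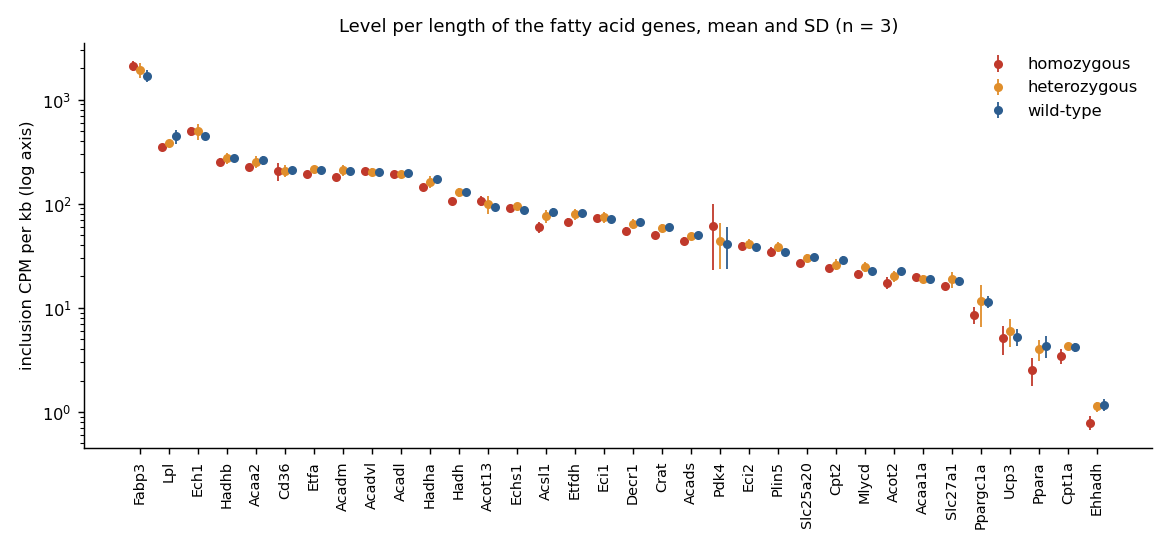
Inclusion CPM per kb (log axis) for the 34 fatty acid genes with a level per length, in order of their wild-type level; points are means and lines are SDs over 3 libraries in homozygous (red), heterozygous (orange) and wild-type (blue) hearts. The order runs from Fabp3 to Ehhadh, and the 3 genotypes lie close together for most genes.

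Uptake and activation came first in the pathway. Cd36, the main sarcolemmal fatty acid transporter (5:17986688-18093799 on GRCm39), had 1301, 1153 and 1670 CPM in homozygous, 1588, 1232 and 1331 CPM in heterozygous and 1295, 1438 and 1509 CPM in wild-type hearts. The 3 groups overlapped fully. Its log2 fold change was -0.04 in homozygous hearts (95% interval -0.35 to 0.27) and -0.03 in heterozygous hearts (-0.34 to 0.28), both against wild-type. The interval leaves room for a moderate change in either direction, and the sign for homozygous hearts was positive in some alternatives, at 0.13 from the 3′ side of each gene alone.

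Lpl (8:69333143-69360100) had 2200, 2307 and 2359 CPM in homozygous hearts, 2649, 2573 and 2360 CPM in heterozygous hearts and 3280, 2426 and 3026 CPM in wild-type hearts. All 3 homozygous libraries lay below all others, with the third only just under heterozygous replicate 3. The log2 fold change against wild-type was -0.35 (SE 0.108, adjusted p = 0.0926) in homozygous hearts and -0.20 (SE 0.108, adjusted p = 1) in heterozygous hearts. Without wild-type replicate 2, the homozygous value was -0.46 and was called (adjusted p = 0.0431). It was called in 3 of 20 alternatives in all, with adjusted p from 0.0241 to 0.268.

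Acsl1 encodes the main long-chain acyl-CoA synthetase of heart; like the other members given in full at an unadjusted p under 0.05, it is shown because of its value. Its levels were 599, 492 and 629 CPM in homozygous hearts, 805, 608 and 779 CPM in heterozygous hearts and 738, 751 and 879 CPM in wild-type hearts. Homozygous and wild-type libraries did not overlap, and the log2 fold change was -0.46 (SE 0.13, adjusted p = 0.0716). It was called in 6 of 20 alternatives, among them the fit without heterozygous replicate 2 (adjusted p = 0.0378). The transport protein Slc27a1 was at -0.16 (adjusted p = 0.491), and the abundant Fabp3 was the one gene of this step above 0, at 0.31 (95% interval -0.01 to 0.62, adjusted p = 0.233).

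A promoter window of Cd36 is shown because Ppara and PPAR targets are among the members. The sequence runs from 250 bases before to 50 after 1 start listed by RefSeq, on build GRCm38.p6 (minus strand). Capitals mark a PPAR-type element. This start was not matched to the gene span counted on GRCm39, which may hold other starts, so the window need not lie at the outer end of that span. The element searched, on both strands, is AGGTCA, any 1 base, AGGTCA, with at least 10 of the 12 fixed bases matching.
Cd36, chr5:17835847-17836146: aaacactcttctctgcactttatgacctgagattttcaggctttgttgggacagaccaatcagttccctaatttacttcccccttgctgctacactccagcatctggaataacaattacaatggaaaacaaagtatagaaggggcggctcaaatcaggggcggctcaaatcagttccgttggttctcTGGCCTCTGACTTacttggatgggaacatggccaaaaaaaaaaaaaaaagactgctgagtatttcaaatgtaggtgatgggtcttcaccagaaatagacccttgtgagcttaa
Such an element was found in 5 of the 31 members that have a window (Cd36, Slc25a20, Echs1, Etfa and Ucp3), which is 16.1%, against 4.4% of 27025 gene symbols. In Cd36 it lies on the opposite strand, its first base 63 before the start, with 10 matching bases. The ERR element AAGGTCA, searched on both strands, was in 1 member, Acadm (3.23%), against 5.38% of symbols. A match describes the letters of this window and says nothing of binding, and the 5 genes with a PPAR-type match had homozygous log2 fold changes from -0.19 (Slc25a20) to 0.06 (Echs1).

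The carnitine shuttle was the step in which every member with its own identifier was below wild-type, while the joined Cpt1b identifier was at 0.07. Cpt1a, Cpt2, Slc25a20 and Crat ranged from -0.34 to -0.19 in log2 fold change, 3 of the 4 at an unadjusted p under 0.05 and none called. Over all genes, 50.3% were below 0 and 12% were lower at that p. Their summed level was 710, 677 and 709 CPM in homozygous libraries, 889, 792 and 778 CPM in heterozygous libraries and 830, 810 and 873 CPM in wild-type libraries. No homozygous library reached any other; Crat makes up most of the sum. In the other steps the summed levels of homozygous and wild-type libraries overlapped: 6853 to 7769 CPM in homozygous and 6925 to 8244 CPM in wild-type libraries for uptake and activation, and 10567 to 11742 CPM in homozygous and 11490 to 11995 CPM in wild-type libraries for beta oxidation. Regulators and side branches averaged higher in homozygous hearts, at 873 ± 233 CPM, against 796 ± 108 CPM in wild-type hearts (SD, n = 3 each). Pdk4 was the largest part of that sum, at 342 ± 213 CPM in homozygous and 230 ± 99.8 CPM in wild-type hearts. Of the 9 genes of this step, 7 had log2 fold changes below 0 (77.8%, against 50.3% of all genes). Over all 35 members the sum was 18736 to 21238 CPM in homozygous and 19930 to 21983 CPM in wild-type libraries. Among the lists of other pathway genes described below, some sums were also apart, such as regulators. These summed to 1454 to 1569 CPM in homozygous and 1714 to 2035 CPM in wild-type libraries. Other lists overlapped, such as peroxisomal oxidation, at 1163 to 1212 CPM in homozygous and 1196 to 1260 CPM in wild-type libraries.

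Cpt2, the inner-membrane carnitine palmitoyltransferase (4:107761178-107780807), had 108, 102 and 105 CPM in homozygous hearts, 133, 114 and 111 CPM in heterozygous hearts and 140, 122 and 137 CPM in wild-type hearts. The homozygous libraries lay under all 6 others. Its log2 fold change was -0.34 (SE 0.0927, adjusted p = 0.0659) in homozygous and -0.16 (SE 0.0926, adjusted p = 1) in heterozygous hearts. Crat, which makes acetylcarnitine and buffers acetyl-CoA, had 490, 451 and 474 CPM in homozygous, 608, 540 and 537 CPM in heterozygous and 551, 549 and 594 CPM in wild-type hearts. Here the heterozygous libraries overlapped wild-type and the homozygous ones overlapped neither; the log2 fold change was -0.26 (SE 0.0824, adjusted p = 0.0977). Cpt1a had 24.7, 25.5 and 33.3 CPM in homozygous hearts, 35, 32.9 and 35.3 CPM in heterozygous hearts and 30, 34.7 and 36.5 CPM in wild-type hearts, with overlapping groups and a log2 fold change of -0.28 (adjusted p = 0.204).

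Cpt1b, the muscle-type carnitine palmitoyltransferase that admits acyl groups to mitochondria, shares its identifier with Chkb and the readthrough gene Gm44502 (15:89300608-89314111), and reads cannot be divided between them. The joined identifier had 619, 592 and 602 CPM in homozygous, 590, 570 and 562 CPM in heterozygous and 514, 573 and 637 CPM in wild-type hearts. The homozygous libraries lay inside the wild-type range, and the log2 fold change was 0.07 (95% interval -0.12 to 0.27, adjusted p = 0.677), turning to -0.03 with library totals as the scaling.

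Slc25a20, the carnitine-acylcarnitine carrier, had 87, 97.8 and 96.3 CPM in homozygous hearts, 114, 105 and 95 CPM in heterozygous hearts and 109, 104 and 107 CPM in wild-type hearts. Homozygous and wild-type libraries did not overlap, at a log2 fold change of -0.19 (95% interval -0.38 to 0.01, adjusted p = 0.241). Its RefSeq promoter window (GRCm38.p6, plus strand) is shown because its PPAR-type element, in capitals, lies just inside the transcript, its first base at position 7 after the start, with 10 matching bases.
Slc25a20, chr9:108661886-108662185: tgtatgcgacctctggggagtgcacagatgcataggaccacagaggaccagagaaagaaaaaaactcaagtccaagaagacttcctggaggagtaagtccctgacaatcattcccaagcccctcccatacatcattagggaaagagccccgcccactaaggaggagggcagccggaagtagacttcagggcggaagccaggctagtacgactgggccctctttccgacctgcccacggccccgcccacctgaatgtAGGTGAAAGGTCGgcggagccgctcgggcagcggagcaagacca

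**Figure D2:**
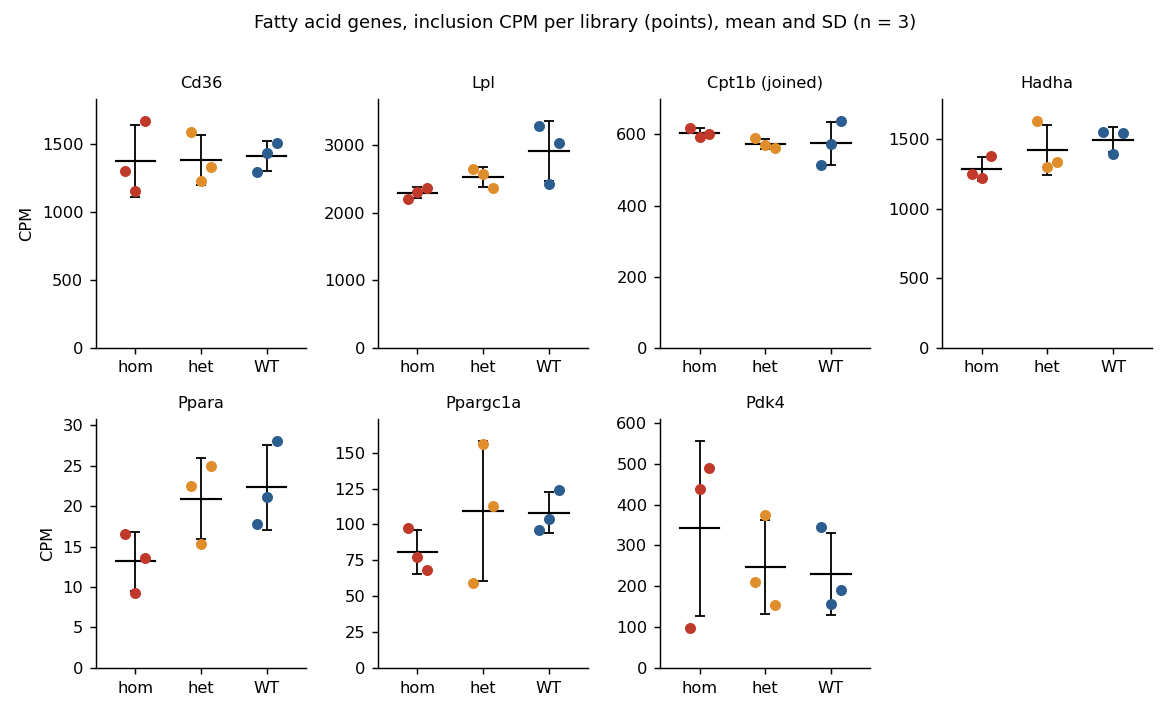
Inclusion CPM in every library (points) with the mean and SD of 3 libraries for 7 fatty acid genes in homozygous (hom), heterozygous (het) and wild-type (WT) hearts; each axis starts at 0. Homozygous points lie below wild-type points for Lpl, Hadha and Ppara, and overlap them for Cd36, Ppargc1a, Pdk4 and the joined Cpt1b identifier.

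Beta oxidation genes ranged from slightly above to below the wild-type level. Of the 17 members with their own identifier, 11 were below 0 (64.7%, against 50.3% of all genes) and 6 above. The median log2 fold change was -0.13, with a range from -0.58 to 0.18 in homozygous against wild-type hearts. None was called. At an unadjusted p under 0.05 there were 4, all lower (23.5%, against 12% of all genes): Ehhadh, Hadh, Decr1 and Etfdh.

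Hadha and Hadhb encode the α and β subunits of the mitochondrial trifunctional protein, which carries out the last 3 reactions of the cycle on long chains. They lie head to head on chromosome 5, at 30323302-30360160 and 30360246-30389591. Hadha had 1245, 1219 and 1379 CPM in homozygous, 1627, 1298 and 1337 CPM in heterozygous and 1550, 1391 and 1543 CPM in wild-type hearts. Hadhb had 1495, 1420 and 1676 CPM in homozygous, 1897, 1550 and 1530 CPM in heterozygous and 1678, 1601 and 1683 CPM in wild-type hearts. In both genes homozygous replicate 2 was the lowest and heterozygous replicate 1 the highest of the 9 libraries. The log2 fold changes in homozygous against wild-type hearts were -0.22 (SE 0.102, adjusted p = 0.226) for Hadha, with no overlap between the groups, and -0.11 (SE 0.101, adjusted p = 0.556) for Hadhb, with overlap.

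The Hadha promoter window (RefSeq, GRCm38.p6, minus strand) is shown because the pair shares it: capitals mark the 228 of its 300 bases that also fall in the Hadhb window, which runs on the other strand. No PPAR-type or ERR element was found in either window.
Hadha, chr5:30154931-30155230: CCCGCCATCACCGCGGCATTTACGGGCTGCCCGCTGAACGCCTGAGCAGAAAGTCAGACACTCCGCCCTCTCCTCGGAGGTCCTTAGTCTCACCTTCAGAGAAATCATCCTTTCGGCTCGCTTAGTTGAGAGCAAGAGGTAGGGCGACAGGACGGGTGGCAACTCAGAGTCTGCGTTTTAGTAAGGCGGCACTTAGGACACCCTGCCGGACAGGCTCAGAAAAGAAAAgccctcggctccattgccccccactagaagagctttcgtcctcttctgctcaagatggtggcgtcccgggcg

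Hadh, the short-chain 3-hydroxyacyl-CoA dehydrogenase, had 334, 314 and 341 CPM in homozygous hearts, 449, 390 and 367 CPM in heterozygous hearts and 398, 400 and 416 CPM in wild-type hearts. Its homozygous libraries lay under all others, at a log2 fold change of -0.30 (SE 0.0893, adjusted p = 0.0854). Etfdh passes electrons from the flavoprotein ETF to ubiquinone. It had 379, 362 and 430 CPM in homozygous, 525, 435 and 434 CPM in heterozygous and 485, 453 and 483 CPM in wild-type hearts, with a log2 fold change of -0.28 (SE 0.101, adjusted p = 0.134). Decr1, needed for unsaturated chains, had 237, 242 and 280 CPM in homozygous, 333, 279 and 274 CPM in heterozygous and 302, 316 and 309 CPM in wild-type hearts, with a log2 fold change of -0.29 (SE 0.0999, adjusted p = 0.122). In both, homozygous and wild-type libraries were apart.

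Ehhadh came closest to the threshold, at the lowest level of all members. It acts in peroxisomes, where it performs the middle reactions of beta oxidation. It had 2.87, 2.73 and 3.56 CPM in homozygous hearts, 4.75, 4.73 and 3.85 CPM in heterozygous hearts and 5.24, 3.96 and 4.49 CPM in wild-type hearts. The homozygous libraries were the 3 lowest, with a log2 fold change of -0.58 (SE 0.154, adjusted p = 0.0588) against wild-type, called in 6 of 20 alternatives, among them the fit without heterozygous replicate 3 (adjusted p = 0.049).

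The acyl-CoA dehydrogenases, which begin each cycle, differed little. Acadl and Acadvl, for long and very long chains, were at -0.05 and 0.00 in log2 fold change, while Acadm and Acads, for medium and short chains, were at -0.18 and -0.19. The 95% intervals were -0.21 to 0.12 for Acadl and -0.19 to 0.20 for Acadvl, which exclude a change of the size seen in Ehhadh. The thiolase Acaa2 was at -0.20 and the electron carrier subunit Etfa at -0.13; in both, as in Acadm and Acads, homozygous and wild-type libraries did not overlap, though none was called (adjusted p between 0.239 and 0.364). Echs1, Eci1, Eci2, Acaa1a and Ech1, the hydratase, the isomerases, a peroxisomal thiolase and the dienoyl-CoA isomerase, lay between 0.02 and 0.18 with overlapping groups. Acaa1a has a close paralog, Acaa1b, and reads of such copies may be divided uncertainly. Etfb, listed with Vsig10l, Mir7051 and Gm45233, had a joined log2 fold change of 0.02 (95% interval -0.19 to 0.22).

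Ppara had the most negative value of all members. It had 16.6, 9.32 and 13.6 CPM in homozygous hearts, 22.5, 15.3 and 25 CPM in heterozygous hearts and 17.8, 21.1 and 28 CPM in wild-type hearts. The homozygous and wild-type libraries came near to touching, at 16.6 and 17.8 CPM, but did not overlap. The log2 fold change was -0.76 (SE 0.238, adjusted p = 0.0938) in homozygous and -0.09 (SE 0.236, adjusted p = 1) in heterozygous hearts. DESeq2 called it at -0.75 (adjusted p = 0.0172). It was called in 3 of 20 alternatives, and its adjusted p reached 0.561.

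Ppargc1a encodes PGC-1α. It had 97.4, 77.1 and 68 CPM in homozygous, 58.9, 156 and 113 CPM in heterozygous and 96.4, 104 and 124 CPM in wild-type hearts. The heterozygous libraries spread more widely than those of either other genotype, and the log2 fold change in homozygous hearts was -0.42 with a 95% interval from -1.03 to 0.19 (adjusted p = 0.403). Pdk4, which restrains pyruvate oxidation and responds to fasting, had 97, 439 and 489 CPM in homozygous hearts, 210, 375 and 154 CPM in heterozygous hearts and 344, 157 and 190 CPM in wild-type hearts. It varied more between libraries of 1 genotype than between genotypes, and its interval, from -0.57 to 1.71 around 0.57, is the widest of the list (adjusted p = 0.557). The value rests on 2 of 3 homozygous libraries and was -0.01 with the 5′-to-3′ ratio as a covariate.

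Acot1 and Acot2 encode acyl-CoA thioesterases, near-identical neighbours on chromosome 12 between which reads may be divided uncertainly. Acot1 had 17.7, 17.6 and 21.7 CPM in homozygous hearts, 26.5, 24.1 and 21.4 CPM in heterozygous hearts and 29.7, 22.8 and 23.5 CPM in wild-type hearts. Acot2 had 38.9, 42 and 44.6 CPM in homozygous hearts, 51.6, 43.4 and 42.6 CPM in heterozygous hearts and 52.9, 47.5 and 49.5 CPM in wild-type hearts. In both, homozygous and wild-type libraries did not overlap, with log2 fold changes of -0.42 (adjusted p = 0.0942) and -0.26 (adjusted p = 0.153). The remaining genes of this step were Mlycd at -0.10, which removes the CPT1 inhibitor malonyl-CoA, Ucp3 at -0.02, the lipid droplet protein gene Plin5 at -0.01 and the thioesterase gene Acot13 at 0.20, with adjusted p from 0.415 to 0.978. Acot13 was the 1 member whose homozygous libraries all lay above wild-type, but only just: replicate 1 of both genotypes stood at 160 CPM after rounding.

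**Figure D3:**
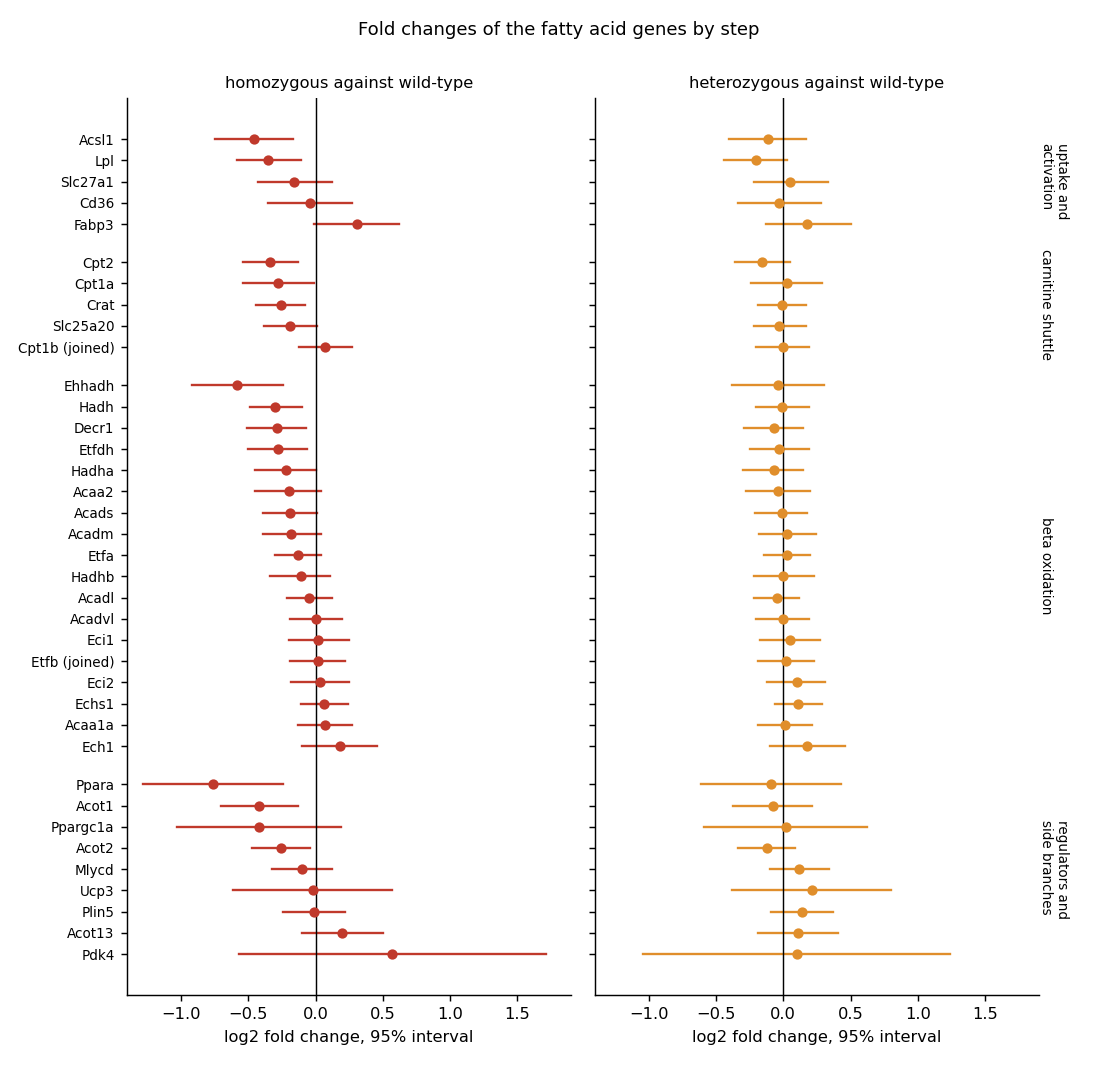
Log2 fold changes with 95% intervals (edgeR) of the 37 fatty acid genes by step, in homozygous hearts (left) and heterozygous hearts (right) against wild-type hearts; Cpt1b and Etfb are joined identifiers. Homozygous values lie mostly below 0, from -0.76 for Ppara to 0.57 for Pdk4, and heterozygous values lie between -0.20 and 0.21.

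Heterozygous hearts were close to wild-type hearts in these genes. No member was called, as no gene in the whole table was (0% of 22049 genes, edgeR), and 0 members were at an unadjusted p under 0.05, against 3.23% of all genes. Rbm20 itself was at -0.48 (unadjusted p = 0.0052, edgeR), with the groups apart, and was not called. The lack of calls alone therefore does not show equal levels. DESeq2 called 0 members and 22 genes in all. The members' median log2 fold change was 0.00, as for all genes, 18 of 35 were below 0 (50.8% of all genes), and the range ran from -0.20 (Lpl) to 0.21 (Ucp3). In no member were the heterozygous and wild-type libraries apart, where 8.26% of all genes had groups that did not overlap. Without heterozygous replicate 3, the library high in atrial markers, the median was 0.05, with 2 members higher at an unadjusted p under 0.05 and 0 called. Without heterozygous replicate 1 the median was -0.08, with 1 member lower at that p and 0 called.

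Set against heterozygous hearts, homozygous hearts again had no called member (0 of 35, background 0.948%, edgeR). At an unadjusted p under 0.05 there were 9 members, all lower (25.7%, background 8.09%), and the median log2 fold change was -0.16, with 28 of 35 below 0 beside 49.7% of all genes. The count at that p was 4, with a median of -0.10, without heterozygous replicate 1, and 5 without homozygous replicate 1 or homozygous replicate 2, with medians of -0.12 and -0.16. Without heterozygous replicate 3 it was 13, with a median of -0.22. Homozygous libraries lay below all heterozygous ones for 6 members (background 9.25%). The lowest adjusted p was 0.145, for Ehhadh at -0.54. With the replicate number as a block, 0 members were again called, though the number of genes called in the whole table was 404 with the block and 209 without it. Ehhadh was called by DESeq2, and Ppara with no filter on low counts. This comparison shares the homozygous libraries with the first one and the first 2 share the wild-type libraries, so their values are not independent.

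Among 97 other genes of fatty acid metabolism in 7 lists, 90 had their own identifier and were tested. In homozygous against wild-type hearts, 8 of them were called lower and 0 higher (background 2.52% lower and 1.87% higher), with a median log2 fold change of -0.17. Acsl6, a long-chain acyl-CoA synthetase, fell most, to 7.58, 5.29 and 6.1 CPM in homozygous hearts, with 11.9, 10.2 and 9.73 CPM in heterozygous hearts and 15.4, 14.2 and 14.3 CPM in wild-type hearts. The 3 genotypes were fully apart and in the order of allele number. Its log2 fold change was -1.21 (SE 0.136, adjusted p = 0.00111) against wild-type and -0.75 (adjusted p = 0.0295) against heterozygous hearts, and -0.46 (adjusted p = 1) in heterozygous against wild-type hearts. Against wild-type it was called in all 21 alternatives, from -1.39 to -1.09. Per length it was a minor synthetase, at 0.608 ± 0.107 CPM per kb in homozygous and 1.38 ± 0.0655 in wild-type hearts, where Acsl1 stood at 59.9 ± 7.44 and 82.4 ± 8.07 (SD, n = 3 each).

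The other 7 called genes had log2 fold changes from -0.82 to -0.38. Each was called in 10 to 14 of 21 alternatives, and in 2 to 5 of the 9 that leave out 1 library. The widest ranges over these alternatives were -1.06 to -0.51 for Acaca and -0.92 to -0.47 for Lpin1, and Rxra ran from -0.59 to -0.23. Acaca, an acetyl-CoA carboxylase that makes malonyl-CoA, fell to 8.66, 6.16 and 7.15 CPM in homozygous hearts, against 11.3, 13.3 and 14 CPM in wild-type hearts (log2 fold change -0.82, adjusted p = 0.0217). Lpin1, a phosphatidate phosphatase that also coactivates PPARα with PGC-1α, fell to 105, 73.4 and 77.5 CPM in homozygous hearts, against 128, 130 and 171 CPM in wild-type hearts (-0.74, adjusted p = 0.0309). Rxra, the receptor with which PPARα pairs on DNA, fell by 0.45 on the log2 scale (adjusted p = 0.048). Acss1, the mitochondrial acetyl-CoA synthetase, fell by 0.59 (adjusted p = 0.0317), and the acyl-CoA dehydrogenase family gene Acad12 fell by 0.39 (adjusted p = 0.0353).

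Peroxisomal oxidation had 2 of its 11 tested genes called lower (background 2.52%), and 9 of the 11 were below 0 (81.8%, against 50.3% of all genes). Pex11a, a peroxisome division factor, fell by 0.52 (adjusted p = 0.0249). Hsd17b4, the D-bifunctional protein gene, fell by 0.38 (adjusted p = 0.0324). In all 8 genes the homozygous and wild-type libraries did not overlap.

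By list, the called genes were 2 of 10 in acyl-CoA activation and thioesterases, 2 of 11 in peroxisomal oxidation, 3 of 27 regulators and 1 of 12 further dehydrogenases and branched-chain or odd-chain steps. There were 0 of 19 in uptake and lipid handling, 0 of 5 in carnitine supply and transport and 0 of 6 in ketone body use. Leaving out 1 library gave between 1 called gene (without homozygous replicate 2, wild-type replicate 2 or wild-type replicate 3) and 13 (without heterozygous replicate 2), with 2 without homozygous replicate 3, 4 without homozygous replicate 1 or wild-type replicate 1 and 5 without heterozygous replicate 1. The library number run as a covariate left 1, and the 5′-to-3′ ratio as a covariate left 2. Other settings called more: DESeq2 20 lower and 1 higher, the replicate block 17 lower and 2 higher, no low-count filter 17 lower and 5 higher, library totals 18 lower and 0 higher, and the 2 groups alone 13 lower and 0 higher. The number called over all genes moved too, from 969 in the main fit. It was 309 without homozygous replicate 2, 307 without wild-type replicate 2, 295 without wild-type replicate 3 and 1319 without heterozygous replicate 2. With the run it was 297, with the 5′-to-3′ ratio 312, with DESeq2 2593 and with the block 2207. With no filter it was 2384 of 37368, with library totals 1337 and with the 2 groups alone 1345.

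**Figure D4:**
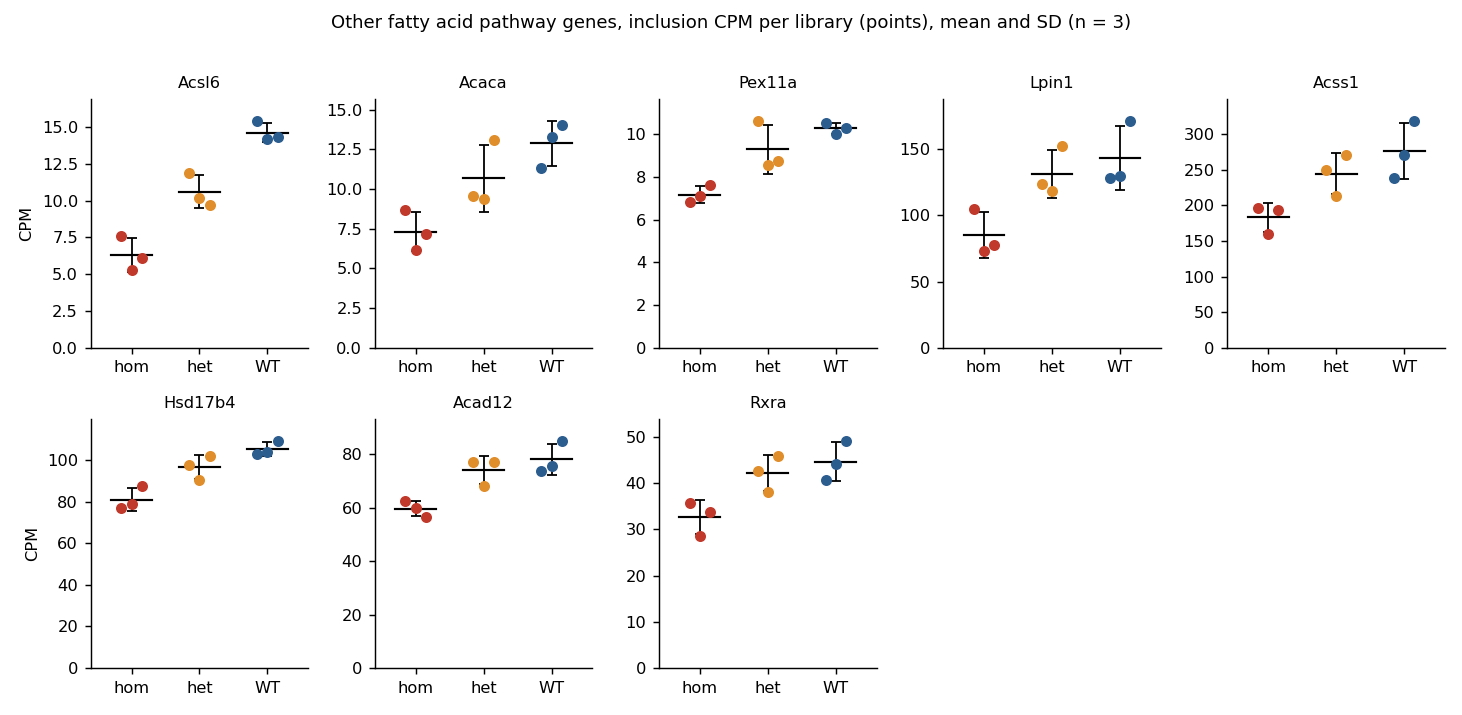
Inclusion CPM in every library (points) with the mean and SD of 3 libraries for the 8 other fatty acid pathway genes called lower in homozygous (hom) against wild-type (WT) hearts, with heterozygous (het) hearts between them; each axis starts at 0. For Acsl6 all 3 genotypes are apart, and for the other 7 the homozygous points lie below all wild-type points.

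Splicing of the members was read from the percent spliced in (PSI), the fraction from 0 to 1 of reads, scaled to length, that include a part. The 35 members had 744 exonic parts, of which 81 in 18 members varied and were deep enough to test. No part was called in any comparison, by limma, with calls needing an adjusted p under 0.05 together with a difference of 0.1 or more, where 0.413% of all tested parts were called in homozygous against wild-type, 0.0755% in heterozygous against wild-type and 0.264% in homozygous against heterozygous hearts. At an unadjusted p under 0.05 there were 8, 0 and 3 member parts in these comparisons, with backgrounds of 7.69%, 4.04% and 6.93%. The 8 parts came from Cd36, Cpt2 and Slc27a1, and adjoining parts of 1 gene share reads. Fabp3, Lpl, Slc25a20, Hadha and Hadh were among the 17 members with no part to test.

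The part with the smallest p was part 22 of Cd36, 25 bases at 5:18040670-18040694. It was included at a PSI of 0.206, 0.268 and 0.247 in homozygous hearts, 0.19, 0.216 and 0.173 in heterozygous hearts and 0.157, 0.186 and 0.17 in wild-type hearts. Homozygous and wild-type libraries were apart, with a difference of 0.0693 (95% interval 0.0122 to 0.126, adjusted p = 0.555). Part 4 of Cpt2 (4:107764828-107764914) had a PSI of 0.959, 0.96 and 0.971 in homozygous, 0.957, 0.946 and 0.959 in heterozygous and 0.92, 0.907 and 0.94 in wild-type hearts. All mutant libraries lay above wild-type; the difference for homozygous hearts was 0.0408 (adjusted p = 0.605), and the 5 parts that adjoin it in a row (parts 3 and 5 to 8) gave between 0.0282 and 0.0409.

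Slc27a1 part 6 was included at 0.188, 0.113 and 0.194 in homozygous, 0.105, 0.118 and 0.0935 in heterozygous and 0.0824, 0.117 and 0.119 in wild-type hearts, with overlapping groups. The differences in homozygous against wild-type hearts were 0.0591 for this part, 0.0544 for Ppara part 6, 0.0318 for Acsl1 part 6 and -0.176 for Eci2 part 30, with adjusted p from 0.622 to 0.694. The Eci2 part has 9 bases and 38 to 78 reads per library, and its libraries overlap. In the joined Cpt1b identifier, part 25 (448 bases, chosen after its value was seen) had a PSI of 0.171, 0.241 and 0.224 in homozygous, 0.179, 0.203 and 0.105 in heterozygous and 0.141, 0.128 and 0.126 in wild-type hearts, a homozygous difference from wild-type of 0.0806 (adjusted p = 0.564, limma).

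**Figure D5:**
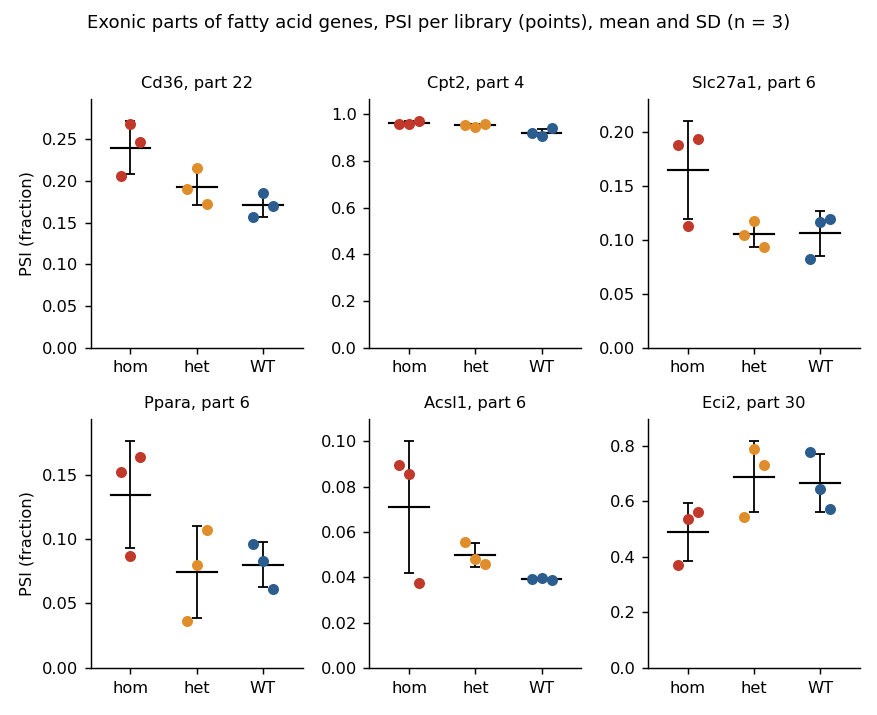
PSI, as a fraction, in every library (points) with the mean and SD of 3 libraries for the 6 exonic parts of fatty acid genes with the smallest p in homozygous (hom) against wild-type (WT) hearts, with heterozygous (het) hearts between them. Homozygous and wild-type points are apart for Cd36 part 22 and Cpt2 part 4 and overlap for the other 4.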

How the data were processed

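RNA sequencing of mouse hearts used paired reads of 150 bases from a stranded kit, per the labels' protocols. The submitters' processing notes name cutadapt 1.8, Salmon 1.2.1 and build GRCm39; which tool counted the exonic parts, and whether strand was used, are not given in the sources used here. The authors deposited, for 480017 exonic parts, inclusion counts, exclusion counts (junction reads that skip the part, 52.6 to 62.3 M per library) and PSI as a fraction. The deposited PSI fractions equalled those computed from the deposited counts and lengths to within 5.00e-07. A read that spans several parts may be counted in each, so a sum per gene can exceed its reads.

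Groups came from the sample titles. Summed inclusion counts per identifier entered edgeR 4.0.16 in R 4.3.3 (filterByExpr, TMM scaling, a quasi-likelihood fit of all 9 libraries) and were called at 0.05 after Benjamini-Hochberg adjustment over all genes tested. PSI was tested with limma 3.58.1 (variance trend) on parts with at least 10 reads in each library, where PSI reached 0.05 in some library and stayed at or below 0.95 in some library. Levels per kb used parts with a mean PSI of at least 0.95. DESeq2 1.42.0, other scalings, filters, covariates and samples were tried as alternatives. The tests were also run on simulated data with 1 spread for all genes, unlike these data, and no conclusion is drawn from that run. Figures and promoter searches used Python 3.11.15; promoter windows are from RefSeq on GRCm38.p6, another build than the counts.

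The rule for the members names genes and uses no measured value, but the members, lists and tests were chosen with earlier results of these data known. Values in every library are given for Cd36, Lpl, Cpt1b, Hadha, Ppara, Ppargc1a and Pdk4 by rule; other members so given were chosen after their values were seen. By the same rule, the text names the 6 member parts with the smallest p (1 per gene) and up to 12 called genes of the other pathway lists. From these lists 1 gene is not reported here and is in none of their counts. Genotypes share replicate numbers in the titles. Deviations from the group means of same-numbered homozygous and heterozygous libraries correlated at 0.13, 0.54 and 0.24. All lay above 0.1, the value set here for taking libraries as paired, though the labels state no pairing beyond the shared numbers. With wild-type libraries the correlations ran from -0.20 to 0.26 for homozygous and from -0.01 to 0.21 for heterozygous libraries. These were not taken as paired. The main fit used no pairing in any comparison, and the replicate block was an alternative.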

Additional observations from a re-analysis of the deposited data

How the results depend on the processing

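The count of called members in homozygous against wild-type hearts was 0 with edgeR and moved with the method: 8 with DESeq2, 11 with library totals (median log2 fold change -0.28, the one alternative that moved the median beyond the spread between libraries), 5 with no low-count filter, 2 with the library number run, 4 with the replicate block and 2 with the 2 groups alone. Counts over all genes moved too: 969 with edgeR, 2593 with DESeq2, 1337 with library totals, 2384 of 37368 with no filter, 297 with the run, 2207 with the block and 1345 with the 2 groups alone. With library totals the median log2 fold change of all genes moved as well, from 0.00 to -0.10. Leaving out each library gave 0 to 1 called members. All of these calls were lower. The numbers were not paired with wild-type libraries, so the block here is an alternative only; 5 of 9 libraries correlated best with their own number, and the block changed no other member call. In homozygous against heterozygous hearts, DESeq2 and no filter each called 1. Signs reversed for Cpt1b with library totals (-0.03), for Cd36 with reads of the 3′ side (0.13) and the 5′-to-3′ covariate (0.19), and for Pdk4 with that covariate (-0.01). Leaving out 1 library gave -0.20 to 0.08 for Cd36 and 0.00 to 0.15 for Cpt1b. The causes were not tested. The 5′-to-3′ alternatives were chosen after seeing the data. Across 20 alternatives, 24 of 35 members kept their sign for homozygous against wild-type, 12 for heterozygous against wild-type and 24 for homozygous against heterozygous hearts. PSI gave 0 called member parts under every alternative.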
